A study of Mus musculus with 2 samples.

Results

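The Gdf5 locus was examined as the set of open chromatin peaks that lay inside Gdf5 or had their nearest edge within 150 kb of it, a window that also takes in the neighbouring gene Uqcc1. Of 28257 peaks called in the proximal femur, 9 met this rule, and of 27958 peaks called in the distal femur, 9 did. Merging peaks that overlapped by at least 1 bp joined them into 9 regions, of 32388 in the whole genome, and each of the 9 held 1 peak of either end. The peaks came from ATAC-seq, in which a transposase cuts accessible DNA and tags it for sequencing, carried out on cells of the proximal and the distal cartilaginous ends of the femur at E15.5, a day of embryonic development. All animals were untreated mice of the FVB strain (given as FVBNJ in the labels), no allele was altered, and the femur ends of 1 litter, 8 embryos on average, were pooled by end. The ends held all chondrocyte zones of the growth plate together with the perichondrium, and 50000 cells went into a library. Each end had 2 biological replicates, which the authors combined into 1 list of reproducible peaks, so the values below carry no replicate error. The lists give positions only, with no peak height, and a peak is either called or not. Gdf5 has the identifier ENSMUSG00000038259.4 and lies on the minus strand of chromosome 2, chr2:155941023-155945367 in mm10, so that higher coordinates are upstream of its start.

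Gdf5 encodes growth differentiation factor 5, a secreted ligand of the bone morphogenetic protein family. It is known for its expression in the stripes of cells that become the joints of the limb, and loss of the gene in brachypodism mice shortens limb bones and removes or fuses joints. The ligand binds the type I receptor Bmpr1b together with type II receptors, is held back by the antagonist Noggin and signals through Smad proteins. Its regulatory sequences are known to be spread over a wide stretch on both sides of the gene, and in humans variants around GDF5 and UQCC1 are associated with height. Uqcc1 itself encodes an assembly factor of mitochondrial complex III.

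Because the peak lists reduce the locus to a few short stretches of DNA, the sequences of the 3 regions inside Uqcc1 introns and of the start sites of the 2 genes next to Gdf5 are given first. The start sites were to be shown as the regions nearest to Gdf5 on each side, and the intronic regions were added after the lists had been examined. Each intronic sequence is the 300 bases around the centre of the merged region, on the plus strand of the GRCm38 assembly. For Uqcc1 and Cep250, the 250 bases before the first annotated start are shown on the strand of the gene. All bases shown lie inside the proximal peak, and all but part of the Uqcc1 sequence, of which 222 bases are covered, lie inside the distal peak. Capitals mark matches to a set of 11 short motifs that is described with the motif results. The sequences are of the reference strain C57BL/6J, and FVB mice may differ from it.
Uqcc1 intron 6, chr2:155900040-155900339: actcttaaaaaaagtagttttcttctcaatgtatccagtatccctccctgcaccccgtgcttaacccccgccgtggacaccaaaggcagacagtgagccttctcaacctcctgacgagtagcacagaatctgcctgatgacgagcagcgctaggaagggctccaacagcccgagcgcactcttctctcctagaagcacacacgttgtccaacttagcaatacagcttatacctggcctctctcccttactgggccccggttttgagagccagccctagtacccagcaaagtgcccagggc
Uqcc1 intron 7, chr2:155863047-155863346: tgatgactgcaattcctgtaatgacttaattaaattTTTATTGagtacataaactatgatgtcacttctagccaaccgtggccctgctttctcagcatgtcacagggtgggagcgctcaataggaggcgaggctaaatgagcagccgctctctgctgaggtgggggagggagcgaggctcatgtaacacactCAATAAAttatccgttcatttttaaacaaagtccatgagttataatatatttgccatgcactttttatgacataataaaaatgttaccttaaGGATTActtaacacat
Uqcc1 intron 9, chr2:155850193-155850492: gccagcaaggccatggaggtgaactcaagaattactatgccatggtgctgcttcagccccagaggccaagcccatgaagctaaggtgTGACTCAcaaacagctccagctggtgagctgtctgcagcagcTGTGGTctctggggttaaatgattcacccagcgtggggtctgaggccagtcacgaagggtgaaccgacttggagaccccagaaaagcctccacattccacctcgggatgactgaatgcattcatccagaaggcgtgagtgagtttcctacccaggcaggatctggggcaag
Uqcc1 start, chr2:155930311-155930560, minus strand: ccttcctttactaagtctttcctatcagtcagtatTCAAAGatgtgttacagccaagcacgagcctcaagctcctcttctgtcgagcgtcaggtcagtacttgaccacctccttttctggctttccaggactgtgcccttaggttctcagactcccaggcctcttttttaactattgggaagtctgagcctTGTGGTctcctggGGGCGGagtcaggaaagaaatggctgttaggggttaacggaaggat
Cep250 start, chr2:155956208-155956457: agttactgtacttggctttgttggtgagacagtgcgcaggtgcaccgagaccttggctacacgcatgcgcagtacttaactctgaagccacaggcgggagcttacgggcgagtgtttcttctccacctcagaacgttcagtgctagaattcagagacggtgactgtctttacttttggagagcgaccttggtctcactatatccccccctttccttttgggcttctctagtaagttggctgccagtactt

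No peak of either femur end was called at the start of Gdf5 or anywhere inside the gene. The peak nearest to the Gdf5 start was 10751 bp upstream in the proximal and 10723 bp upstream in the distal femur, at the start of Cep250, which encodes a centrosomal protein. On the downstream side the nearest region was 14.7 kb away, at the start of Uqcc1. Gdf5 therefore sat in a stretch of 25.4 kb without a called peak, bounded by the start sites of its neighbours. Such a stretch was not long for these lists, as the median gap between neighbouring regions was 33968 bp and 41.0% of 32369 gaps were shorter. A start site without a peak was also common. Of 20807 autosomal protein-coding genes, 8505 (40.9%) had no region within 1 kb of an annotated start, and 30.5% had their nearest region farther from a start than Gdf5 did. These lists hold peaks that passed the reproducibility threshold in pooled tissue. A Gdf5 start that is closed, one open in few cells and one weakly open in many therefore cannot be told apart. Gm15557, an annotated gene that overlaps the 3′ part of Gdf5 on the other strand, also had no peak at its start, with the nearest 10084 bp away in the proximal and 10195 bp in the distal femur.

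**Figure D1:**
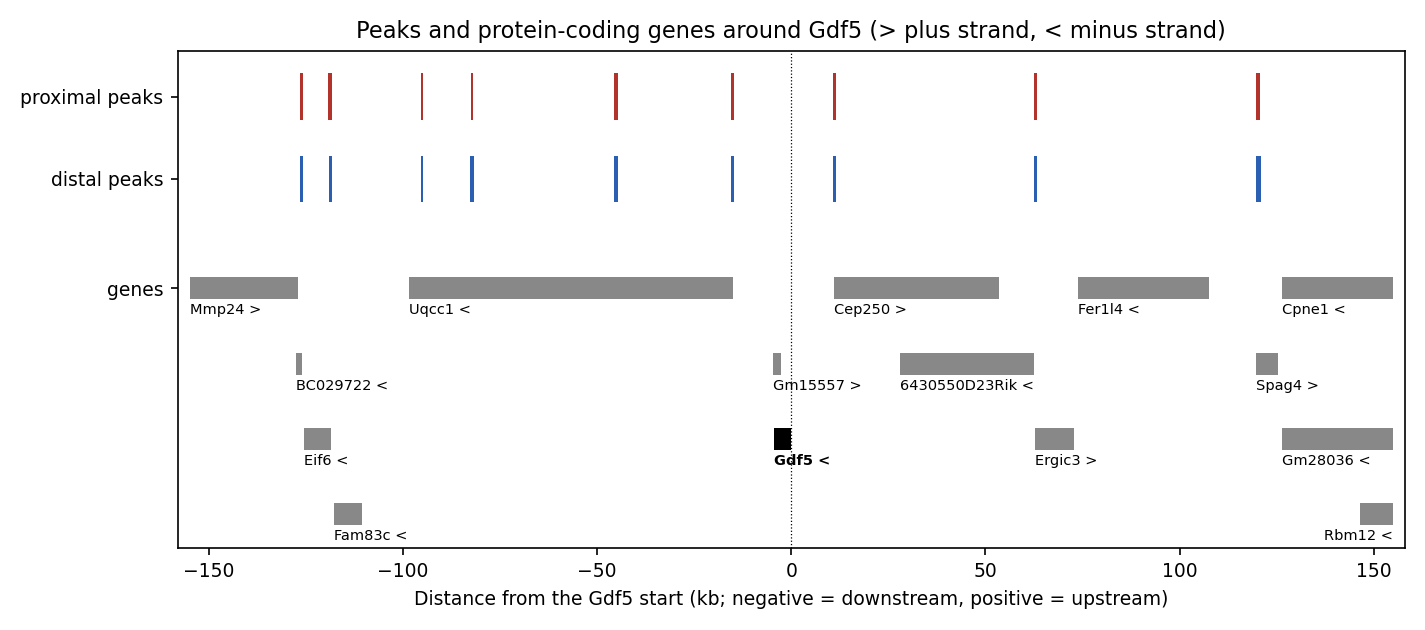
Map of the Gdf5 locus, with distance from the Gdf5 start in kb on the horizontal axis, called peaks of the proximal (red) and distal (blue) femur as bars drawn to scale, and protein-coding genes in grey (Gdf5 in black). All 9 proximal peaks have a distal counterpart, none lies in Gdf5, and the 3 regions away from start sites all lie inside Uqcc1.

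The 9 regions fell into 2 kinds. Of these, 6 lay within 1 kb of an annotated start site and the other 3 lay in introns of Uqcc1, so 66.7% were at start sites (95% Wilson interval 35.4% to 87.9%, for counting error alone) against 42.5% of all 32388 regions. The start-site regions were split evenly, with 3 upstream and 3 downstream of Gdf5. Of the regions away from start sites, all 3 were on the downstream side, in the same gene, and 0 were on the upstream side. These are too few regions to call the locus uneven.

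The intronic region closest to Gdf5 was in intron 6 of Uqcc1, counted along the principal transcript, which has 9 introns. It ran from chr2:155899707-155900647 in the proximal femur and chr2:155899723-155900673 in the distal femur, and its nearest edge was 44.7 kb downstream of the Gdf5 start. The peaks were 941 bp and 951 bp wide, and the shared part made up 95.7% of their joint length, a higher value than in 82.5% of the 23450 shared regions with 1 peak of each end. The merged region was 967 bp wide, wider than 92.1% of the 18613 regions that lie farther than 1 kb from a start site. The nearest annotated exon was 624 bp away.

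A second region lay in intron 7, 81.7 kb downstream of the Gdf5 start. It was called from chr2:155862747-155863460 in the proximal femur, a width of 714 bp, and from chr2:155862699-155863694 in the distal femur, a width of 996 bp. The proximal peak lay wholly within the distal peak, which was 282 bp wider. Its distal to proximal width ratio of 1.39 was above that of 96.8% of shared pairs. No annotated exon came closer than 4509 bp and the nearest annotated start was 11006 bp away.

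The third region lay in intron 9, the last of the transcript, 94.8 kb downstream of the Gdf5 start. Its peaks were the narrowest at the locus, at 488 bp in the proximal femur (chr2:155850091-155850578) and 493 bp in the distal femur (chr2:155850103-155850595). They nearly coincided, with centres 14.5 bp apart. This region was 1096 bp from the start of a short Uqcc1 transcript, just past the limit of 1 kb, and 307 bp from the nearest exon.

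Uqcc1 spans 83417 bp, and 3 regions away from start sites within its body were more than most genes had. The median over all 20807 protein-coding genes was 0, and 4.48% had 3 or more. Among the 1957 genes of 60 to 110 kb, closer to Uqcc1 in length, 5.93% had 3 or more. The 3 include the intron 9 region, which lay 1096 bp from an annotated start and would not count with a limit of 3 kb. The shares of genes at that limit were not computed. The count says that peaks were present in Uqcc1 and does not say which gene they act on. At human GDF5, the study reported a height-associated variant inside a peak of its femoral growth plate data. It cited separate work by its authors in which the enhancer there drove GDF5 expression in growth plates. Whether any of the 3 Uqcc1 regions corresponds to that peak was not examined here.

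At the start sites, the Uqcc1 region was called from chr2:155929856-155930643 in the proximal femur (788 bp) and chr2:155929804-155930532 in the distal femur (729 bp). The Cep250 region ran from chr2:155956119-155956983 (865 bp) and chr2:155956091-155956983 (893 bp), with the same right edge in both lists. Upstream of it, 62.4 kb from the Gdf5 start, 1 region covered the head-to-head starts of 6430550D23Rik and Ergic3, the latter a protein of the compartment between endoplasmic reticulum and Golgi. It was 840 bp wide in the proximal and 751 bp in the distal femur. The farthest upstream member was at the start of Spag4, a sperm-associated SUN domain gene, at 120 kb, with peaks of 926 bp and 1110 bp. On the downstream side, the start of Eif6, an initiation factor that keeps ribosomal subunits apart, had peaks of 1013 bp and 624 bp at 118 kb. The start of BC029722, at 126 kb, had peaks of 809 bp and 738 bp.

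Of the 11 protein-coding genes with their start inside the window, 7 had a peak within 1 kb of a start in both ends and 4 had none in either end. The 4 were Gdf5, Gm15557, Fam83c and Fer1l4. Beyond the upstream border the nearest region was a distal peak, 166 kb from the gene at the start of Cpne1 (chr2:156111459-156112116), with no proximal peak, while the outermost member on that side, at Spag4, was 120 kb away. Beyond the downstream border the nearest region was shared by both ends and lay at the start of Procr, 189 kb from the gene, against 121 kb for the member at BC029722.

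The comparison of the 2 femur ends asks whether accessibility at the locus differed along the bone. Of the 9 proximal peaks, 0 lacked a distal partner, where 16.1% of all proximal peaks did, and of the 9 distal peaks, 0 lacked a proximal partner, where 15.0% of all distal peaks did. Counted as merged regions, 0 of 9 were of 1 end only (95% Wilson interval up to 29.9%), where 27.0% of all merged regions were. With 9 regions the interval reaches past the background, so the absence of single-end peaks was not separable from it. The interval covers counting error alone and treats neighbouring regions as independent. The background was not split by kind of region, although 66.7% of members and 42.5% of all regions were at start sites. It was not rare among genes either. Of 20807 protein-coding genes, 28.4% had no single-end region within 150 kb, and of the 1529 genes with exactly 9 regions, 228 (14.9%) had none.

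Within the shared regions the peaks of the ends differed in width by between 5 and 389 bp. The proximal peak was the wider in 4 regions and the distal peak in 5, and the median width was 840 bp for proximal and 751 bp for distal members, against 711 bp and 691 bp over all peaks of each end. A pair of regions stood outside the 5th to 95th percentile of the width ratio among all shared pairs, which ran from 0.685 to 1.30, and the other 7 stood within it. At Eif6 the distal peak was 389 bp narrower and lay wholly inside the proximal one, giving a ratio of 0.616, and 2.70% of pairs had a lower one. The intron 7 region of Uqcc1 had the opposite difference. Without replicate lists, the spread of peak width between replicates is unknown, and these differences were not tested.

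**Figure D2:**
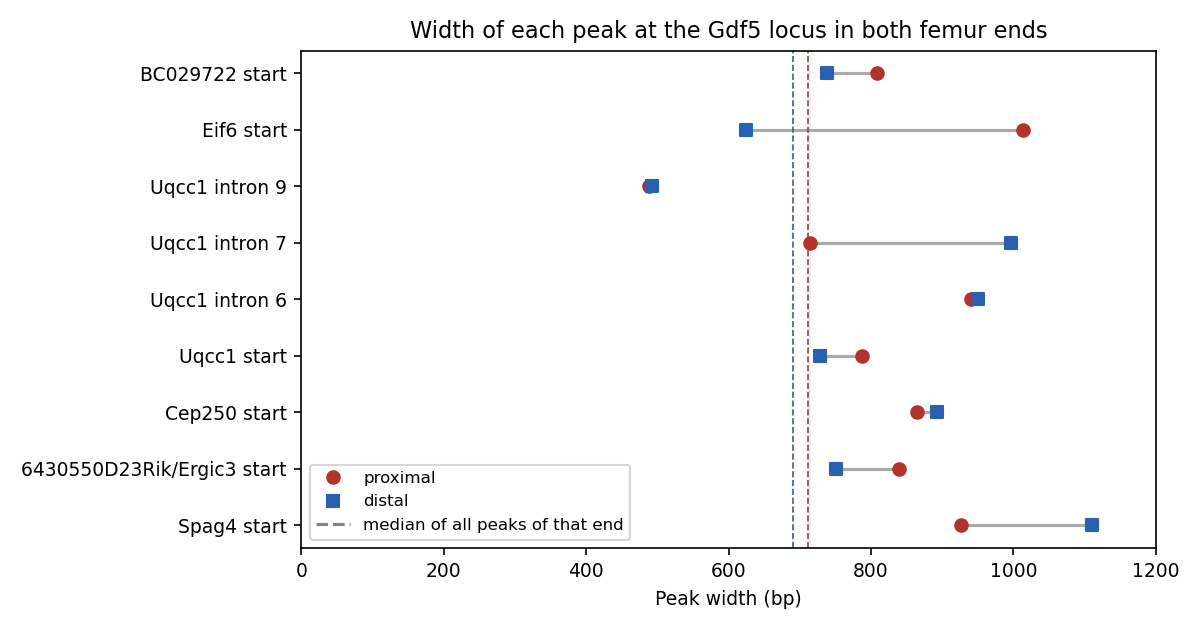
Width in bp (horizontal axis) of the proximal (red circles) and distal (blue squares) peak of each region at the Gdf5 locus, ordered from the most downstream to the most upstream, with dashed lines at the median width of all peaks of each end (711 and 691 bp). The points nearly coincide in introns 9 and 6 of Uqcc1 and lie farthest apart at Eif6 (1013 and 624 bp) and in intron 7 (714 and 996 bp).

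The base composition of the members, which the distance rule did not use, followed the kind of region. The 6 start-site regions had a GC content between 55.6% at Uqcc1 and 67.5% at Spag4, where the median of all 13775 regions within 1 kb of a start site was 60.2%. Their ratio of observed to expected CpG dinucleotides, a measure of how CpG-rich a sequence is for its composition, was between 0.437 at BC029722 and 0.764 at Eif6. The median for such regions was 0.712. The lowest ratio, at BC029722, was above that of 17.1% of start-site regions, and the highest, at Eif6, above that of 61.7%. The Uqcc1 introns were more mixed. Intron 7 was the most AT-rich member, with 43.4% GC, while the GC content was 50.2% in intron 6 and 55.4% in intron 9, the last of these above that of 90.6% of regions far from start sites, whose median was 47.2%. The CpG ratio was 0.384 in intron 7, above 82.2% of regions far from start sites, 0.321 in intron 6 and 0.232 in intron 9. Repeats, as soft-masked in the assembly, covered 13.0% of the intron 7 region, 5.89% of that in intron 6 and 0% of that in intron 9.

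**Figure D3:**
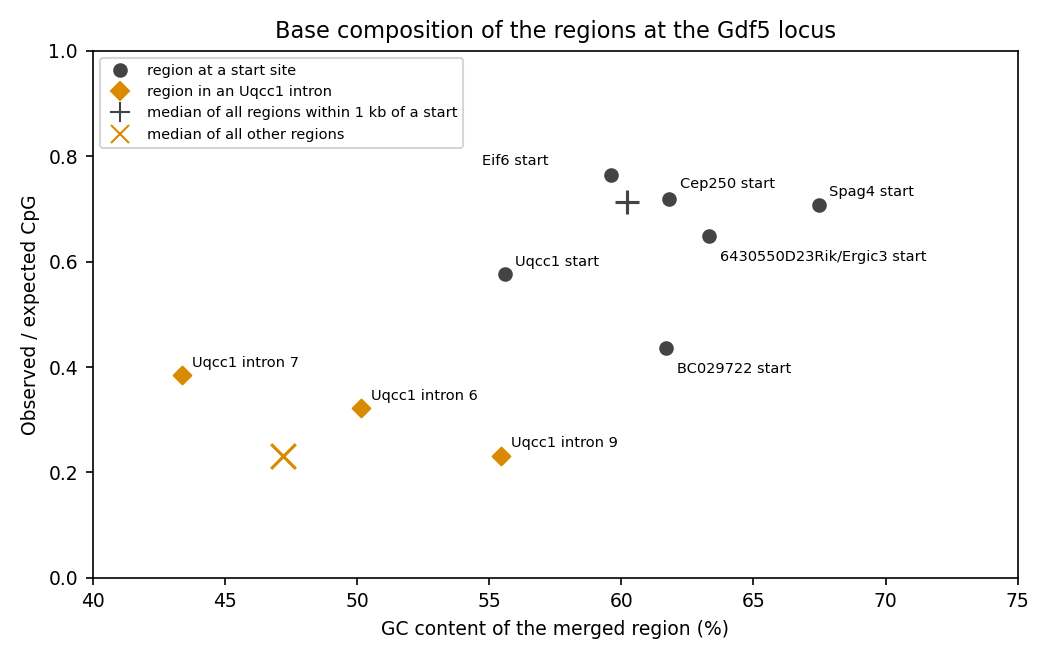
GC content in percent against the ratio of observed to expected CpG for the 9 merged regions, with start-site regions as dark grey circles, Uqcc1 intronic regions as orange diamonds, a plus at the median of all regions within 1 kb of a start site (60.2%, 0.712) and a cross at that of all other regions (47.2%, 0.230). The intronic regions lie between 43.4% and 55.4% GC with CpG ratios of 0.232 to 0.384, and the start-site regions lie at 55.6% GC or higher.

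The motifs searched, on both strands, were TGACTCA (AP-1), AACAAT (Sox), ACCACA (Runx), CTTTGA (Tcf/Lef), TAATCC (Pitx), TTTATNG (posterior Hox), TGACAG (Meis), GGCGCC (Smad), GGGCGG (Sp/Klf), CCGGAAG (Ets) and the Ctcf consensus. Matches may overlap, as those of CTTTGA and TGACAG did over a shared TGA in the intron 6 region. A match shows that these letters are present and does not show that a factor binds. In the 200 bp around the centre, 5 of 9 members held GGGCGG, all of them start-site regions. Its share was 50.1% among all start-site regions, 7.78% among the others and 25.8% over both kinds. Searched over their whole length, the 6 start-site members and the intron 6 region held it, 7 of 9, where 43.1% of all regions did. TGACTCA was present near the centre of 1 member, Uqcc1 intron 9, where 19.9% of all regions and 30.4% of those far from start sites held it. It also occurred toward the downstream edge of the Eif6 region, in a part covered by the proximal peak only. AACAAT and the Ctcf consensus occurred in 0 members, also when whole regions were searched, and their shares among whole regions were 17.7% and 4.69%.

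The sequences above show where the motifs lie in the Uqcc1 introns. In intron 9 a TGACTCA lies 60 bp to the left of the centre and is followed by TGTGGT, the reverse complement of ACCACA, 18 bp to the left of the centre. Among the 300 bp centres of regions far from start sites, 37.5% held TGACTCA and 25.4% held ACCACA. The intron 7 sequence holds TTTATTG and CAATAAA, both matches of TTTATNG, which was found in 12.9% of such centres, and a GGATTA, the reverse complement of TAATCC, found in 8.80%. The whole intron 7 region had 3 matches of TTTATNG, the rightmost under the distal peak only, and the whole intron 6 region also had 3. Among regions far from start sites within 100 bp of the same width, 2.43% of 1525 and 2.29% of 1790 respectively had at least as many. Intron 6 also had 3 matches of ACCACA, which 6.09% of the regions of like width reached. All of these lay outside the 300 bp shown, which held no match to any of the 11 motifs. These counts were singled out after their values had been seen. Before the start of Uqcc1, the 250 bases hold TCAAAG, the reverse complement of CTTTGA, then TGTGGT and GGGCGG, motifs found in 13.4%, 13.0% and 39.6% of the corresponding sequences of 20807 genes. The sequence before Cep250 holds none of the motifs. The Cep250 region itself had 5 matches of GGGCGG and 1 of GGCGCC, all past that start.

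The number of regions around Gdf5 was moderate. Its 9 regions compare with a median of 7 (quartiles 4 and 10) within 150 kb of a protein-coding gene, and 63.2% of 20807 genes had fewer. Longer genes take in a longer window. In windows of equal length around the 5′ end of each gene, Gdf5 again had 9 regions, where the median was 6, and 70.8% of genes had fewer. For regions farther than 1 kb from start sites the figures were 3 at Gdf5 and a median of 2, and 53.8% of genes had fewer. Neighbouring genes share regions, so these genes are not independent. Peaks covered 2.43% of the window of 304345 bp in the proximal femur and 2.39% in the distal femur, against 0.879% and 0.847% of the autosomes. The window is centred on a gene and the autosomes as a whole are not, so these shares are not of like sequence. The counts per gene above are the closer comparison.

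**Figure D4:**
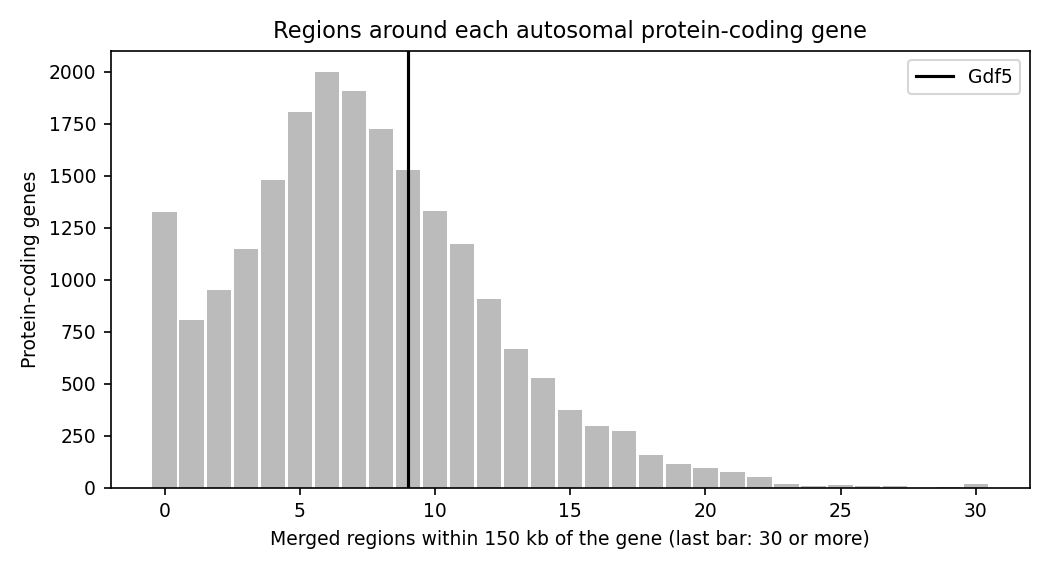
Number of autosomal protein-coding genes (vertical axis) by the number of merged regions within 150 kb of the gene (horizontal axis, the last bar holding the 18 genes with 30 or more), with a line at Gdf5. Gdf5, with 9 regions, lies above the median of 7 and within the bulk of the genes.

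The lists carried peaks at the starts of cartilage genes. Of 8 chondrocyte markers (Sox9, Col2a1, Acan, Col9a1, Col11a1, Matn3, Hapln1 and Comp), 7 had a peak within 1 kb of a start in both ends, and Comp had one in the distal femur only. Of 4 osteoblast and 4 muscle markers, 0 had one in either end, while 1 of 4 endothelial and 1 of 4 epithelial markers had one in both ends (Kdr and Krt10), and a further 1 of each list, Tek and Krt1, had one in the distal femur only. Over all 20807 protein-coding genes, 55.0% had a peak within 1 kb of a start in both ends. Of 4 joint and articular markers only Erg had a start-site peak, and Gdf5, Prg4 and Barx1 had none. The lists do not say which cells of the pooled tissue a peak comes from. The share of joint cells in the dissected ends was not measured here and its part in the missing Gdf5 start peak was not tested.

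Of 19 other genes of the signalling pathway, 16 had a peak within 1 kb of a start in both ends, where 55.0% of all protein-coding genes did. Every receptor of the list did (7 of 7), including Bmpr1b, the preferred type I receptor of Gdf5, and so did all 6 Smad genes. Of 4 antagonists, Grem1 and Chrd had one in both ends, Fst had one in the proximal femur only, and Noggin (Nog), the extracellular inhibitor of Gdf5, had none within 114 kb of its start. The ligands differed among themselves. Gdf6 had a start-site peak in both ends, and Gdf7, the third member of this ligand subfamily, had none in either, its nearest peaks being 11.2 kb from a start in the proximal and 11.1 kb in the distal femur.

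The number of regions within 150 kb of the other pathway genes was between 1 at Nog and 21 at Acvr1, with a median of 8. Single-end regions made up 51 of their 174 regions, or 29.3%, near the 27.0% of all merged regions. At 5 of the 19 genes, as at Gdf5, no region was of 1 end, and these were Gdf6, Bmpr2, Acvr2a, Nog and Smad4, with between 1 and 7 regions each. Over all 20807 protein-coding genes, 28.4% had no single-end region. Of the 6 pathway genes without one, Gdf5 had the most regions.

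**Figure D5:**
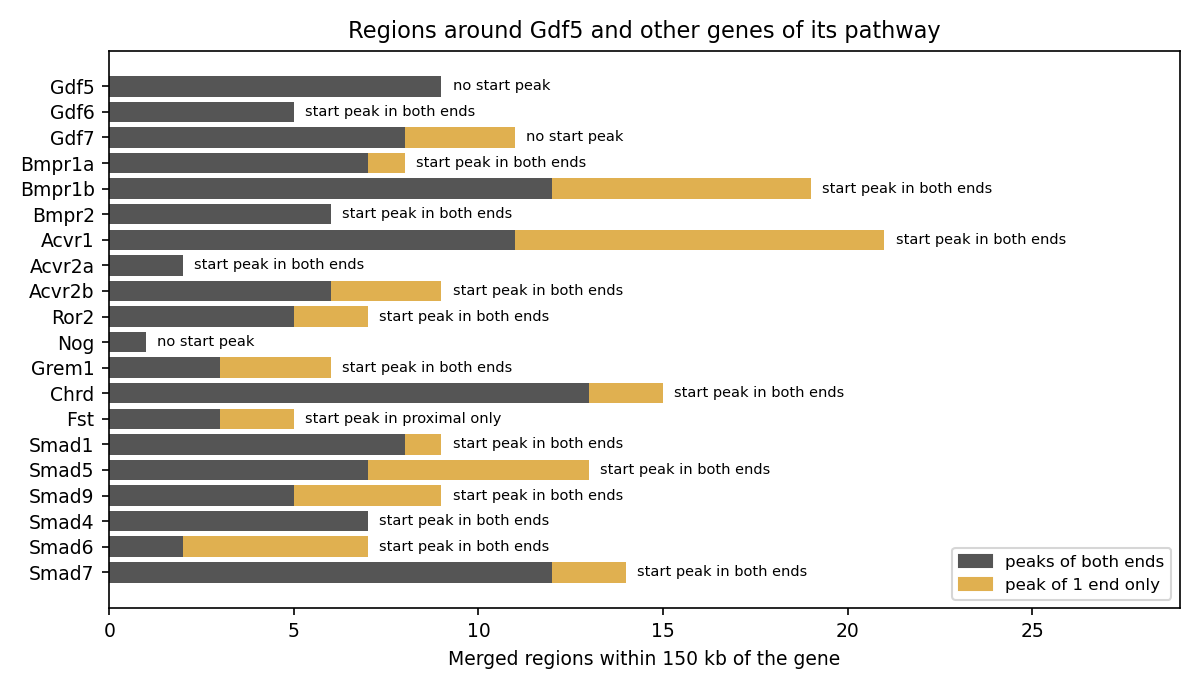
Merged regions within 150 kb of Gdf5 and of the other 19 genes of its pathway (horizontal axis, number of regions), with regions called in both femur ends in grey and regions called in 1 end in yellow, and the status of the start site beside each bar. Gdf5 has 9 regions, all of both ends, and is 1 of 3 genes with no start-site peak, with Gdf7 and Nog.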

How the data were processed

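ATAC-seq libraries of 50000 cells were made from pooled proximal and distal femur ends, with 2 biological replicates per end. Bowtie2 (2.2.8 in the submitters' processing notes) was the aligner used by the authors, with mm10 as the genome. They discarded duplicates, called peaks with MACS2 (2.1.1 in the same notes) and kept peaks at an IDR, a measure of reproducibility between replicates, under 0.05. The deposited files give chromosome, start and end per peak, 1 list per end, with no score. Read depth, which bears on which peaks are called, is not in these lists and was not analysed here.

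Starts were read as counted from 0, and printed coordinates count from 1. Peaks on 19 autosomes were compared with GENCODE mouse release 21 and the GRCm38 assembly (RefSeq copy), with 0 peaks past a chromosome end, using pysam 0.24.0, SciPy 1.17.1, NumPy 2.4.6 and Matplotlib 3.10.9 under Python 3.11.15. Overlap counted from 1 bp, merging joined overlapping peaks, and a start-site region had its nearest edge within 1 kb of a transcript start. Regions of like width differed by at most 100 bp. Host introns were taken at the centre of the region. With 1 list per end, no test between ends was made. Genes named were Gdf5, Uqcc1, the genes of the window and fixed lists of pathway genes and cell type markers. The result of 1 marker list is not reported here. The members and lists were chosen with earlier results of these data known. Overlap, merging and motif search were tested on simulated data, the search with the AP-1, Sox, Runx, Tcf/Lef, Pitx and posterior Hox motifs only.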

Additional observations from a re-analysis of the deposited data

How the results depend on the processing

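No paired analysis was possible because the lists combine the replicates of each end, and for the same reason no replicate was left out. The width of the window set the counts. Within 50 kb of Gdf5 there were 3 proximal peaks, 3 distal peaks and 3 merged regions, all 3 of both ends. Within 250 kb there were 14 proximal and 15 distal peaks in 15 regions, of which 14 were of both ends and 1, at Cpne1, was distal only. The share of protein-coding genes with fewer regions than Gdf5 was 41.2% at 50 kb, 55.4% at 100 kb and 72.1% at 250 kb. Dropping peaks narrower than their list median, in place of a stricter IDR threshold, which needs scores, left 1 region of 1 end, Eif6, by construction, since its distal peak is narrower than that median. No region became single-end with an overlap of 50% of both peaks or with distances from peak centres to the Gdf5 start. A window of 100 kb, or taking peaks up to 500 bp apart as shared, could not have made one single-end. All regions of the main window were already shared. A start-site distance of 3 kb, which takes in Uqcc1 intron 9, gave 7 start-site regions.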
